A study of Mus musculus with 15 samples.

Results

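Igf2 and 6 other imprinted genes (H19, Mest, Ndn, Peg3, Cdkn1c and Igf2r) were read in mouse embryonic stem (ES) cells that lack or carry Srf, the gene of serum response factor. All probe sets annotated to these 7 genes were taken, which gave 10 of 12588 probe sets that are not array controls. A probe set is a group of short probes that reads one transcript. Of the 10, 9 passed the filter on low values, against 9558 of all probe sets. The genes were chosen because several of them were already known to differ between Srf-null cells and the other lines in these data, so that difference is described here and not tested. They were chosen by their measured intensity differences in that contrast.

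The Srf-null line (E100-/-), its rescue line (E100-/- rescue) and the wild-type line (E14wt) received fetal bovine serum for 0, 10, 30, 60 or 180 min. Total RNA was hybridised to Affymetrix MGU74A arrays, with 1 array for each of the 3 lines and 5 times, 15 in all. Nothing in the labels tells how Srf was restored in the rescue cells, whether a line is 1 clone, or how the cells were kept before serum. The times of a line stand in for replicates, so standard errors and p-values reflect variation among times of a single series per line, not among cultures.

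Most genes are transcribed from both parental copies, but an imprinted gene is transcribed mainly from the copy inherited from one parent, according to DNA methylation laid down in the germ line. Igf2 and H19 are neighbours that share enhancers, and a methylation-sensitive boundary bound by CTCF directs those enhancers to Igf2 on the paternal copy and to H19 on the maternal copy. Imprinted genes often act on fetal growth, and their methylation is known to drift in cultured ES cells. Arrays of this kind do not distinguish the parental copies.

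Igf2, H19, Ndn, Peg3 and Cdkn1c lie on chromosome 7, Mest on chromosome 6 and Igf2r on chromosome 17. Between the starts of H19 and Igf2 the RefSeq annotation (GRCm38.p6) lists 2 genes, of which 0 code for a protein. One of them, Mir675, lies within H19, and the H19 probe set is annotated to both, so H19 values are those of a transcript that includes the precursor of miR-675. Its mature arms are given with the seed (bases 2 to 8) in capitals, because the H19 signal cannot be told apart from that of their precursor. Both lie on the minus strand, the 5p arm at chr7:142577112-142577133 and the 3p arm at chr7:142577078-142577099, and their seeds differ.
mmu-miR-675-5p: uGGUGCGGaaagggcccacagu
mmu-miR-675-3p: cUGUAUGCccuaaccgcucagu

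RefSeq start-site windows, from 250 bases before to 50 bases after each annotated start, matched 5 of the 7 genes. They numbered 10: 4 for Igf2, 3 for Mest and 1 each for Peg3, Ndn and Igf2r. H19 and Cdkn1c were not matched. Of the 10, 4 are printed, because they belong to Igf2, Mest and Peg3, which were called in the comparison of lines, and hold the motifs named next. Igf2 has several alternative starts, and its window at chr7:142661222-142661521 (minus strand) held a CArG box, the motif that SRF binds, shown in capitals with its first base at position -155 from the start. The most downstream Igf2 window, at chr7:142657447-142657746 (minus strand), held 2 GC boxes, the motif GGGCGG bound by Sp1, in capitals. The Mest window at chr6:30737803-30738102 (plus strand) held 1 GC box, and the Peg3 window at chr7:6730370-6730669 (minus strand) held the cyclic AMP response element TGACGTCA at position -178, both in capitals.
Igf2, window with the CArG box: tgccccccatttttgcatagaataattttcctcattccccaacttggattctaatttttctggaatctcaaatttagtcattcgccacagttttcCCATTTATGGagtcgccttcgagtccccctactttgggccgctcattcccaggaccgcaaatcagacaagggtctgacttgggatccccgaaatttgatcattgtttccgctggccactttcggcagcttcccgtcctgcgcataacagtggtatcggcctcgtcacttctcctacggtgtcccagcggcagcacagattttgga
Igf2, most downstream window: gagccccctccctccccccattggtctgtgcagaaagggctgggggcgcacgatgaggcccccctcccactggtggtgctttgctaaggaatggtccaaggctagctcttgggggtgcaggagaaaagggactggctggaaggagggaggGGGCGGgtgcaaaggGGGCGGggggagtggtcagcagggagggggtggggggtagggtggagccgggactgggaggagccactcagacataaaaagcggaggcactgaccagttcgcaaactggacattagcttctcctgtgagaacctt
Mest: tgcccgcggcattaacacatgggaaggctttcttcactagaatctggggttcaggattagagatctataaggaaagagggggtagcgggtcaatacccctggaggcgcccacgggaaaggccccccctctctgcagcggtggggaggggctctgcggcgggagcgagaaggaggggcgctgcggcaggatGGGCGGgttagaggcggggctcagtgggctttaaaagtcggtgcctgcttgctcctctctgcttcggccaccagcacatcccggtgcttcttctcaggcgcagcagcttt
Peg3: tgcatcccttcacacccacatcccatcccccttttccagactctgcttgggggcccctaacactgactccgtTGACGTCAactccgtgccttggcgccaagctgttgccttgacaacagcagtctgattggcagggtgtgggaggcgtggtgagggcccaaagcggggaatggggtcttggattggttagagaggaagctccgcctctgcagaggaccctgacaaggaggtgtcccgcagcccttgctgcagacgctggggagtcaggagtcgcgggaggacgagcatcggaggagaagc
A CArG box was found in 1 of the 10 windows of these genes and in 1.63% of all 32851 windows. GGGCGG on either strand was in 7 of the 10 and in 35.7% of all windows, and TGACGTCA in 1 of the 10 and in 1.79%. The 7 belong to Mest, Ndn, Igf2 and Igf2r and are not separate units. The Mest windows at chr6:30737800-30738099 and chr6:30737803-30738102 overlap almost wholly and share a GC box. The windows printed for the CArG box and for TGACGTCA held 0 GC boxes. These motifs were chosen after earlier results were known, and a match in letters is not evidence of binding.

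The array values are linear intensities from which a background had been subtracted, and 24.9% to 41.6% of them were 0 or negative on an array. After quantile normalization, values under 84.98 (the 40th percentile, 6.41 on the log2 scale) were set to that floor for the fits, while the values printed per array are the normalized intensities without the floor. Srf had 0 probe sets in the annotation, so the genotype was not checked by the targeted gene. Of 17 pluripotency genes, 14 to 17 were above the floor on every array. The 0 min arrays of the rescue and wild-type lines stood apart from the rest of their lines in several, but not all, of the genes described here. The beta-actin 3' to 5' control ratio was 4.22 and 7.53 on them, 3.83 on Srf-null 60 min, 2.94 on Srf-null 0 min and 2.11 or less elsewhere. The same ratio for the GAPDH control had a median of 0.74 over all arrays. Its highest value, 1.51, came from the wild-type line at 0 min, whereas the rescue line at 0 min gave 0.72. The GAPDH ratio therefore did not set that rescue array apart, unlike the beta-actin ratio. The Y-linked gene Eif2s3y gave 134 units on the array labelled wild-type 0 min, against 1435 to 2078 on the other 4 wild-type arrays. It gave 104 to 290 in Srf-null cells and 309 to 502 in rescue cells. Its probe set may also read the X-linked copy of the gene. Each 0 min value is that of the array so labelled. The comparisons are therefore given for the 12 arrays from 10 to 180 min and for all 15. The 0 min arrays were set apart with earlier results of these data known, so calls found only over 12 arrays depend on that choice.

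Igf2, a fetal growth factor expressed from the paternal copy, was the most different of the 7 genes. Its probe set 98623_g_at gave -1815, -673, -922, -1294 and -1410 normalized intensity units in Srf-null cells at 0, 10, 30, 60 and 180 min. In rescue cells it gave -1829, 9337, 10240, 9513 and 5942, and in wild-type cells -1853, 4981, 5223, 4690 and 2640. All 5 Srf-null arrays were below 0, as were both other lines at 0 min, and from 10 min on every rescue array was above every wild-type array. On the 8 arrays above the floor the probe set lay at percentiles 87.6 to 98.0 of all values of the array. On the 7 arrays below 0 it lay at percentiles 0.221 to 2.86, among the most negative values. All 3 values labelled 0 min were under the floor, and no difference between them was measurable. The other Igf2 probe set, 98622_at, was designed on the same sequence record and stayed under the floor on all 15 arrays, so the Igf2 values rest on 1 of 2 probe sets.

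H19, a long noncoding RNA expressed from the maternal copy, gave 811, 753, 760, 399 and 462 units in Srf-null cells at the 5 times (93028_at). It gave 327, 2630, 3015, 3639 and 2004 in rescue cells and 1071, 1762, 1575, 1901 and 1454 in wild-type cells. From 10 min on, the lines did not overlap, in the order rescue, wild-type, Srf-null, which is also the order of Igf2. At 0 min the order was different, with the rescue array the lowest and the wild-type array the highest. Unlike Igf2, H19 was above the floor on all 15 arrays, including every Srf-null array.

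**Figure D1:**
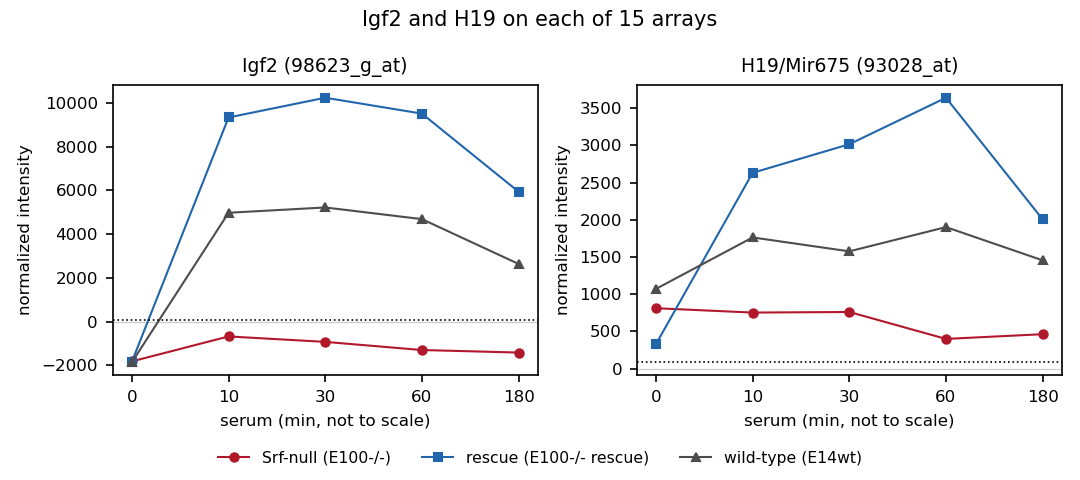
Normalized intensity (vertical axis, linear) of Igf2 and of the H19 probe set against minutes of serum (not to scale), 1 point per array, with Srf-null, rescue and wild-type cells as 3 lines and the floor of 84.98 dotted. Igf2 is below 0 on all 5 Srf-null arrays and on all 3 arrays at 0 min, and from 10 min both genes run in the order rescue, wild-type, Srf-null.

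Mest, a paternally expressed gene for an enzyme of the alpha/beta hydrolase family, was detected in all lines (92607_at). It gave 907, 1426, 1293, 1472 and 1294 units in Srf-null cells, 694, 2600, 2884, 2827 and 2172 in rescue cells, and 779, 3826, 2246, 3493 and 1719 in wild-type cells. From 10 min on, all Srf-null values were below all others, while rescue and wild-type values overlapped. At 0 min all 3 lines were at their own lowest value.

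Ndn encodes necdin, a paternally expressed protein that restrains proliferation of neuronal precursors. Its probe set 101059_at gave -190, 207, 161, 139 and 113 units in Srf-null cells, 108, 514, 471, 357 and 441 in rescue cells, and -36, 302, 348, 254 and 257 in wild-type cells. The values are low, yet from 10 min on the lines did not overlap and kept the order rescue, wild-type, Srf-null. A further Ndn probe set, 94811_s_at, was above the floor on only 4 of 15 arrays (Srf-null 0 min, rescue 10 and 60 min, and wild-type 10 min) and did not separate the lines.

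Peg3, a paternally expressed zinc finger gene, stood out in rescue cells. Its probe set with the higher mean, 96765_at, gave 2071, 758, -370, 1449 and 176 units in Srf-null cells, 1400, 3982, 4121, 4894 and 5181 in rescue cells, and 1524, 316, 1558, 343 and 2656 in wild-type cells. Rescue values from 10 min on exceeded all others, while Srf-null and wild-type values overlapped and varied widely. The wild-type values were high at 30 and 180 min and low at 10 and 60 min. In that line the deposited intensity of the 18S ribosomal RNA control was likewise high at 30 and 180 min (24309 and 29326) and low at 10 and 60 min (2318 and 2074). H19 and Mest in wild-type cells were instead higher at 10 and 60 min than at 30 and 180 min. In Srf-null cells the control was 14064, 18798, 3133, 24002 and 5562 at the 5 times, and this Peg3 probe set was lowest at 30 and 180 min. In rescue cells the control was high at 0 and 180 min, where Peg3 was lowest and highest. The part of the control in these values was not tested beyond a fit with it as a term. The other Peg3 probe set, 101451_at, gave 352, 445, 774, 694 and 553 units in Srf-null cells, 814, 2412, 2505, 5837 and 2200 in rescue cells, and 54, 995, 923, 895 and 698 in wild-type cells. Here too the rescue line was apart from 10 min on, and Srf-null and wild-type values overlapped.

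The maternally expressed genes other than H19 did not separate Srf-null cells from the rest. Cdkn1c, which encodes the cyclin-dependent kinase inhibitor p57, gave 482, 668, 832, 1431 and 433 units in Srf-null cells, 642, 590, 554, 672 and 493 in rescue cells, and 6233, 1242, 1521, 1162 and 597 in wild-type cells (95471_at). The wild-type array at 0 min was above all 14 others. Igf2r, the receptor that takes up IGF2 protein for degradation, gave -227, -311, -123, 344 and -179 units in Srf-null cells, 239, 206, 529, 204 and 90 in rescue cells, and 77, 113, -206, -141 and -102 in wild-type cells (95117_at). It was above the floor on 7 arrays, which were all 5 rescue arrays, Srf-null 60 min and wild-type 10 min.

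**Figure D2:**
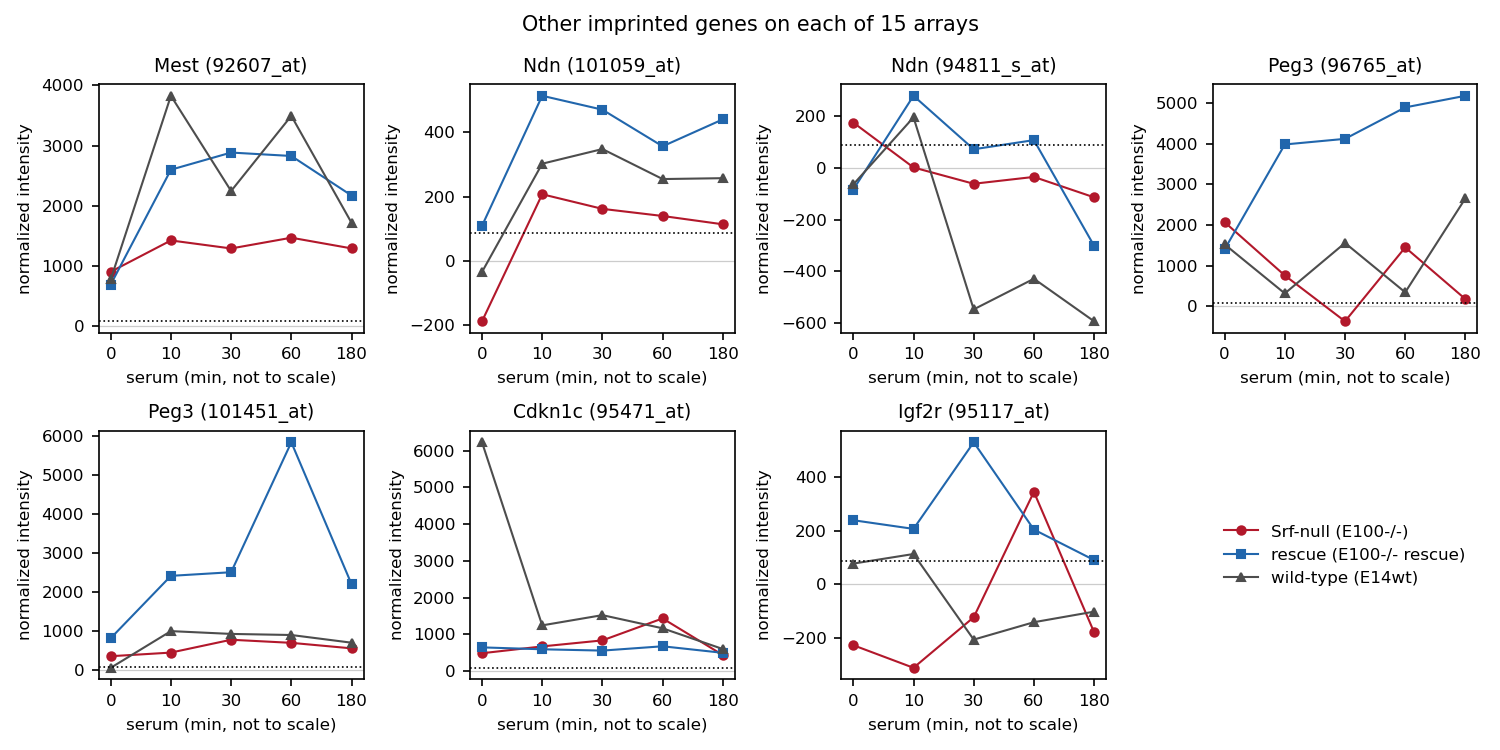
Normalized intensity (vertical axis, linear, its own scale in each panel) of the other 7 tested probe sets, against minutes of serum (not to scale), 1 point per array and 1 line per cell line, with the floor of 84.98 dotted. From 10 min, Mest and Ndn (101059_at) are lowest in Srf-null cells and Peg3 is highest in rescue cells. Cdkn1c is highest on the wild-type array at 0 min.

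The difference of Srf-null cells from the mean of the rescue and wild-type lines sets cells without Srf against both lines that carry it by their labels, and it is the contrast on which the genes were chosen. With 1 series per line, the genotype cannot be told apart from other differences of the Srf-null line. Eif2s3y, a Y-linked gene, also differed in this contrast (-2.19 ± 0.25) and between rescue and wild-type cells (-2.13 ± 0.29), both called. It was 1 of 2 Y-linked genes tested, and the other was not called in either contrast. Over the 12 arrays from 10 min, Igf2 was at least 70.9-fold lower in Srf-null cells at the floor used (log2 difference -6.15 ± 0.15, SE, 4 arrays per line). This limit is set by the floor, because all 4 Srf-null values were at it. Those values add no spread, so the SE and the call do not measure variation of Igf2 in Srf-null cells. The log2 difference was -7.47 with the floor at the 35th percentile and -3.75 at the 60th. H19 was 3.76-fold lower (-1.91 ± 0.20), with geometric means of 570 units in Srf-null, 2758 in rescue and 1664 in wild-type cells. Mest was 1.93-fold lower (-0.95 ± 0.16), with geometric means of 1369, 2605 and 2680 units in the same order. Peg3 (101451_at) was 2.67-fold lower (-1.41 ± 0.22), with 603, 2968 and 871 units, so most of that difference came from the rescue line. The difference from wild-type cells alone was -0.53 ± 0.26 for this Peg3 probe set.

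Ndn (101059_at) was lower by a log2 difference of -1.24 ± 0.25, and Peg3 (96765_at) by -2.42 ± 0.87. The differences of Ndn (94811_s_at), Igf2r and Cdkn1c were -0.40 ± 0.24, -0.20 ± 0.47 and -0.032 ± 0.23. By the call used for all probe sets (limma, Benjamini-Hochberg adjusted p under 0.05 and 1 direction against each other line), 4 of 9 probe sets of these genes were lower and 0 higher. The 4 were Igf2, H19, Mest and Peg3 (101451_at). Igf2 and H19 were called in all 12 fits that left out 1 array, Peg3 (101451_at) in 2 and Mest in 1, and with each array's non-positive share as a term Igf2 alone was called. Among all 9558 probe sets, 1.16% were called, 0.659% lower and 0.502% higher. Nothing is read from this count, since the same contrast chose the genes. Scaling the arrays to a common median of positive values shifted the median of all probe sets to -0.27 and the calls to 8 higher and 51 lower, against 48 higher and 63 lower as reported, and the same 4 probe sets were called.

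Over all 15 arrays the differences of Igf2, H19, Mest and Ndn (101059_at) were smaller in size, with larger standard errors. Igf2 was lower by a log2 difference of -4.92 ± 0.73, H19 by -1.44 ± 0.41, Mest by -0.70 ± 0.21 and Ndn (101059_at) by -1.02 ± 0.30. Those of Cdkn1c and Igf2r were larger in size than over 12 arrays, at -0.44 ± 0.39 and -0.31 ± 0.38. Of the 9 probe sets, 1 (Igf2) was called, against 0.136% of all probe sets, 0.105% called lower and 0.0314% higher. That Igf2 call held in 3 of 15 fits that left out 1 array, those without an array at 0 min, and was lost in 4 of 11 other settings. Every Srf-null array, and all 3 lines at 0 min, were at the floor for Igf2. The size of its difference therefore depends on the floor, and Srf-null cells add no spread to its SE. With the 0 min arrays of rescue and wild-type cells left out, the 4 probe sets of the 12-array fit were called. This is not a separate check. Time is a factor, so the Srf-null array left alone at 0 min adds nothing, and the differences are those of the 12-array fit.

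Without any model, the Srf-null values from 10 min on lay below all values of both other lines for 4 of 9 probe sets (Igf2, H19, Mest and Ndn 101059_at), as they did for 1.37% of all probe sets. The genes were chosen on this same contrast, so nothing is read from that count either. Rescue values lay above all wild-type values for 5 of 9 (Igf2, H19, Ndn 101059_at and both of Peg3), as they did for 3.44% of all, and below them for 0 of 9, against 2.92% of all. The 0 min array was the lowest of its line for 4 of 9 probe sets in Srf-null, 6 of 9 in rescue and 5 of 9 in wild-type cells. Over all probe sets these shares were 33.8%, 26.4% and 27.2%.

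The rescue line and the wild-type line both carry Srf by their labels, and their comparison did not enter the choice of genes. From 10 min on, Peg3 (101451_at) was higher in rescue cells than in wild-type cells, 3.41-fold (log2 difference 1.77 ± 0.26, limma adjusted p = 0.0335), and higher at all 4 times. This was the only call among the 9 probe sets, against 0.398% of all probe sets and 0.136% called higher. It was lost in 5 of 10 other settings and in all 12 fits that left out 1 array (adjusted p from 0.0179 to 0.153). Over all 15 arrays the difference was 2.07 ± 0.39 (adjusted p = 0.115), and 0 of 9558 probe sets were called (0%), although 693 had an unadjusted p under 0.05.

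Igf2 was 2.02-fold higher in rescue cells than in wild-type cells (log2 difference 1.02 ± 0.17, 95% interval 0.63 to 1.40), also at all 4 times, but narrowly missed the threshold in limma (adjusted p = 0.0580, range over other settings and arrays left out 0.00679 to 0.276). The fit pools the spread of all lines, and the Srf-null Igf2 values, all at the floor, add none of their own. H19 differed by 0.73 ± 0.23 (adjusted p = 0.323) and Ndn (101059_at) by 0.62 ± 0.29 (adjusted p = 0.555). Peg3 (96765_at), Igf2r and Ndn (94811_s_at) differed by 2.46 ± 1.01, 1.21 ± 0.54 and 0.21 ± 0.27, none of them past the threshold. Mest gave -0.041 ± 0.18 with an interval from -0.45 to 0.37. Cdkn1c went the other way, with -0.90 ± 0.27 (adjusted p = 0.297).

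**Figure D3:**
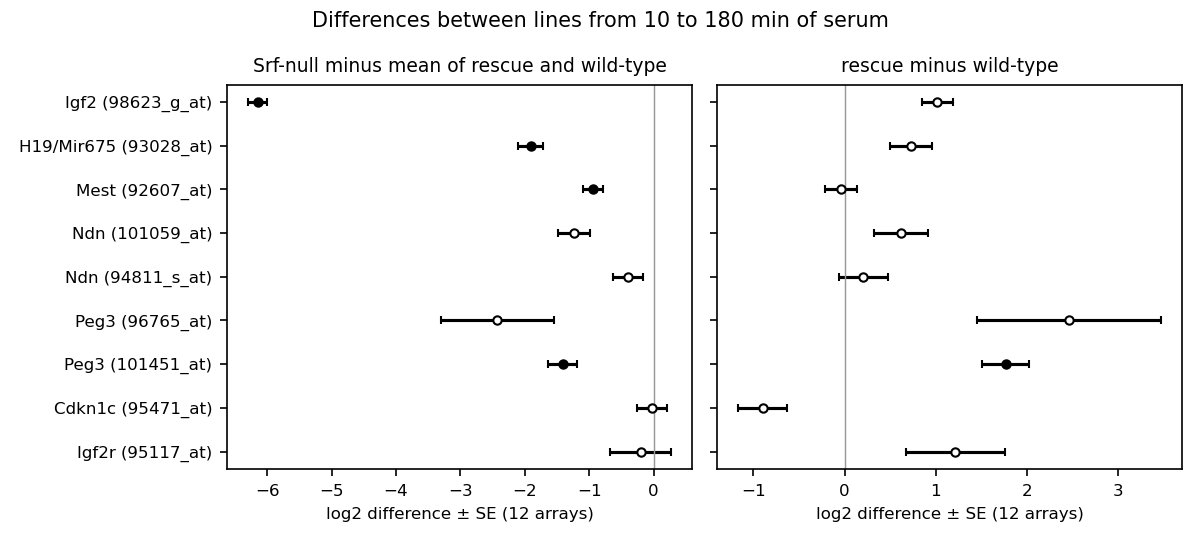
Log2 differences with standard errors (horizontal axis) for the 9 probe sets over the 12 arrays from 10 min, Srf-null minus the mean of rescue and wild-type cells on the left and rescue minus wild-type cells on the right, with filled points for those called. Igf2, H19, Mest and Peg3 (101451_at) are called on the left, where the size of the Igf2 value is a limit set by the floor, and Peg3 (101451_at) is called on the right. The standard errors of Igf2 hold no spread of Srf-null cells, whose values were all at the floor.

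The serum comparison asks whether these genes rise or fall steadily from 10 to 180 min. It leaves out 0 min, so it does not set serum against its absence, and it can miss a brief peak. In simulated data it recovered 17.9% of probe sets with a true log2 change of 1. No such change was called here, and absence of a serum response is not read from this. The fitted change from 10 to 180 min, as a mean of the 3 lines, passed the threshold for 0 of 9 probe sets and for 0 of 9558 (0%), while 848 had an unadjusted p under 0.05. Igf2 gave -0.51 ± 0.19 on the log2 scale (limma adjusted p = 0.520), H19 -0.46 ± 0.25, Mest -0.43 ± 0.21, Ndn (101059_at) -0.50 ± 0.31 and Cdkn1c -0.56 ± 0.41. Peg3 gave -0.027 ± 0.37 (101451_at) and 0.59 ± 1.04 (96765_at). By line, the fitted change of Igf2 was -0.64 ± 0.33 in rescue and -0.90 ± 0.33 in wild-type cells, and it could not be measured in Srf-null cells, where all values were at the floor. When 180 min was instead set against the mean of 10, 30 and 60 min within each line, Igf2 was called lower at 180 min (-0.54 ± 0.06, adjusted p = 0.00439), as the only one of the 9. This setting, chosen as an alternative, called 241 of the 9558 probe sets. Both Igf2 means over the 3 lines, -0.51 and -0.54, count Srf-null cells as unchanged because their values were at the floor. That line adds no spread, so the SE, p-value and call do not describe the lines where Igf2 was measured. No serum response of Igf2 is read from the call.

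The difference of that serum change, Srf-null minus the mean of the other lines, was called for 0 of 9 probe sets and for 0 of 9558 (0%), with 642 at an unadjusted p under 0.05. It was 0.77 ± 0.41 for Igf2 (adjusted p = 0.728), -0.62 ± 0.53 for H19 (adjusted p = 0.793) and 0.51 ± 0.45 for Mest (adjusted p = 0.804) on the log2 scale. For Igf2 this value reflects the change in the other lines alone, since the Srf-null values did not leave the floor. The intervals are wide, from -0.17 to 1.71 for Igf2 and from -1.84 to 0.59 for H19.

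Igf2 and H19 were correlated across the arrays of the 3 lines. Over 15 arrays the Pearson correlation of floored log2 values was 0.903, as a description of points that share 3 lines and the array quality. Both genes were chosen on the Srf-null contrast, and 7 of the 15 Igf2 values were at the floor. Correlations with Igf2 over these arrays therefore partly restate that contrast, and correlation within a line was not tested. In rescue and in wild-type cells Igf2 was highest at 30 min and H19 at 60 min. Both genes had their lowest value after 0 min at 180 min in these lines. With Igf2, Ndn (101059_at) correlated at 0.913, Mest at 0.870 and Peg3 at 0.734 (101451_at) and 0.457 (96765_at). Cdkn1c was at -0.159 and Igf2r at 0.209. The neighbours differed at 0 min, where Igf2 was under the floor in all lines while H19 gave 811 units in Srf-null, 327 in rescue and 1071 in wild-type cells. The array labelled wild-type 0 min, without measurable Igf2, gave more H19 than any Srf-null array.

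The genes most like Igf2 over 15 arrays, among 8042 other probe sets with 1 gene symbol, were Sh3bgrl (correlation 0.980), the kinase Akt1 (0.968), the small GTPase Rac3 (0.959), gamma-actin Actg1 (0.958), the keratins Krt18 and Krt8 (0.949 each), the mitochondrial carrier Slc25a4 (0.941) and Hmgb3 (0.940). Actg1, which encodes a cytoplasmic actin, gave 7327 to 14004 units in Srf-null cells from 10 min, 32948 to 41633 in rescue cells and 27390 to 38839 in wild-type cells. At 0 min it gave 11399, 8891 and 9783 units in the same order, so it too was low on all 3 arrays at 0 min. Of these 8 genes, 2 stayed among the 8 nearest by Spearman rank correlation and 4 over the 12 arrays from 10 min. The genes most like Mest were Laptm4b (0.929), Ctsl (0.923), Rbpms (0.906), Rhox5 (0.890) and Gsto1 (0.890).

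Other imprinted genes were taken from a list of 64, of which 39 had a probe set and 35 were tested, each through its brightest probe set on average. The lists include the 7 genes, which were chosen on the Srf-null contrast. Of the paternally expressed genes, 3 of 16 tested were called lower in Srf-null cells from 10 min and 0 higher, against 0.659% and 0.502% of all probe sets. They were Igf2, Mest and the amino acid transporter Slc38a4, and 14 of 16 differences were negative with a median of -0.91 on the log2 scale. Peg3 is read here by 96765_at, which was not called, while its other probe set 101451_at was. Of the maternally expressed genes, 1 of 17 (H19) was called lower and 0 higher, 11 were negative, and the median was -0.18. Over all tested probe sets 47.8% were negative and the median was 0.016. Leaving out the 7 genes of this report, 1 of 28 was called, against 1.16% of all probe sets, 19 were negative and the median was -0.22. These 28 pool the parental classes, so they do not show the paternally expressed genes apart from the chosen ones.

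Slc38a4 gave 469 to 1770 units in Srf-null cells from 10 min, 3164 to 4550 in rescue cells and 1100 to 2582 in wild-type cells, a log2 difference of -1.42 ± 0.23 between Srf-null cells and the other lines. Srf-null and wild-type cells overlapped. Paternally expressed genes that were not called included Impact, a regulator of translation, at -1.68 ± 0.40, Peg10, a retrotransposon-derived gene of the placenta, at -1.18 ± 0.28, and Sgce, which encodes epsilon-sarcoglycan, at -0.92 ± 0.24. Peg10 gave 546 to 1051 units in Srf-null, 2131 to 4036 in rescue and 791 to 1590 in wild-type cells, again highest in the rescue line. Among maternally expressed genes Slc22a18 and Osbpl5 gave -1.52 ± 0.72 and -0.91 ± 0.48. Differences in the other direction, also not called, were 1.04 ± 0.28 for H13, a signal peptide peptidase, 0.86 ± 0.19 for Phlda2, which restrains placental growth, 0.70 ± 0.17 for Grb10, an adaptor that restrains insulin and IGF signalling, 0.18 ± 0.08 for the tetraspanin gene Cd81, and 0.11 ± 0.16 for Dlk1. Between rescue and wild-type cells 0 of 35 were called, against 0.398% of all probe sets. There 12 of 16 paternally expressed genes were positive (median 0.47) and 5 of 17 maternally expressed genes were positive (median -0.15).

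**Figure D4:**
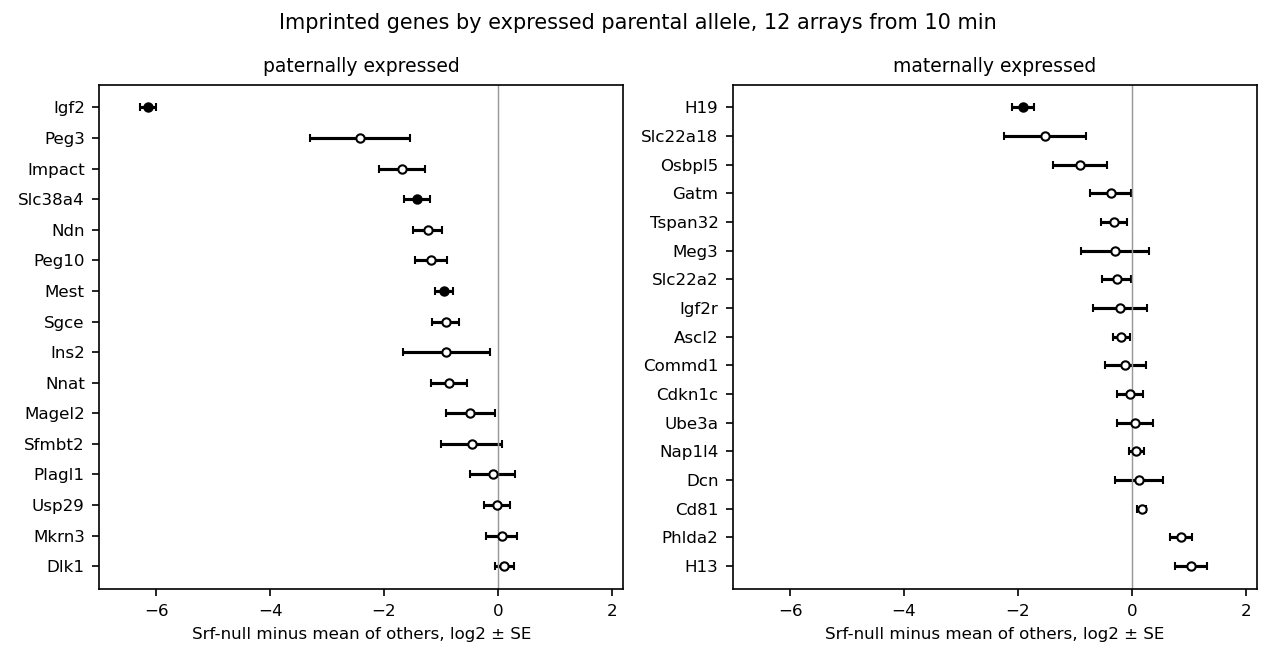
Log2 difference with standard error (horizontal axis), Srf-null minus the mean of rescue and wild-type cells over the 12 arrays from 10 min, for the 16 paternally and 17 maternally expressed imprinted genes tested, each by its brightest probe set, with filled points for those called. On the left 14 of 16 are below 0 and Igf2, Slc38a4 and Mest are filled, and on the right 11 of 17 are below 0 and H19 is filled. Peg3 is shown by 96765_at, not by 101451_at, which was called.

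In the IGF pathway, where IGF2 binds the receptor of Igf1r and signals through AKT kinases, 2 of 16 tested genes were called lower in Srf-null cells from 10 min (Igf2 and Akt1) and 0 higher, against 0.659% and 0.502% of all probe sets, and Igf2 was chosen on this contrast. The list held 32 genes, 23 with a probe set. Akt1 gave 25 to 129 units in Srf-null cells, 510 to 948 in rescue cells and 269 to 508 in wild-type cells, a log2 difference of -2.52 ± 0.31 whose size depends on the floor, since the median Srf-null value was 46.5. The IGF1 receptor gene Igf1r gave 0.16 ± 0.37, and the insulin receptor gene Insr was above the floor on 0 arrays. Of the binding proteins that hold IGFs outside cells, Igfbp4, Igfbp3 and Igfbp1 gave -1.50 ± 0.73, -0.76 ± 0.31 and 1.06 ± 0.62, and Igfbp2 gave -0.20 ± 0.09. Igf2bp1, whose protein binds Igf2 mRNA, gave -0.25 ± 0.14, and the insulin-receptor-related Insrr gave 0.41 ± 0.44. The insulin gene Ins2, which is also imprinted and whose probe set may also read Ins1, gave -0.91 ± 0.77, and Htra1, a secreted serine protease, 0.24 ± 0.40. None of the tested genes named after Akt1 was called.

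Among 12 tested genes of 15 for DNA methylation and imprint maintenance, 2 were called lower in Srf-null cells from 10 min (0.659% of all probe sets) and 0 higher. They are named after their values were seen: Dppa3, which protects imprints in the early embryo, at -2.79 ± 0.32, and the de novo methyltransferase Dnmt3a at -1.29 ± 0.13 on the log2 scale. Dppa3 gave -75.6 to 414 units in Srf-null cells, so its size too depends on the floor. It is also a gene of the pluripotency list, where Nr0b1 (0.57 ± 0.11) and Tbx3 (1.14 ± 0.13) were called higher, both named after their values were seen. Dnmt3a gave 404 to 686 units in Srf-null, 1786 to 2046 in rescue and 890 to 1275 in wild-type cells, the same order of lines as Igf2 and H19. Ctcf gave -0.20 ± 0.13, Zfp57 -0.42 ± 0.65 and Trim28 0.40 ± 0.39. The methylation of the imprinted regions themselves was not measured.

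Igf2 is abundant in extraembryonic tissue, and 4 of 8 tested trophoblast markers (Krt8, Krt18, Tfap2c and Plac8) were called lower in Srf-null cells from 10 min, against 0.659% of all probe sets. The other 4 tested were Esx1 at 0.54 ± 0.33, Cdx2 at -0.014 ± 0.095, Elf5 at -0.22 ± 0.40 and Ascl2 at -0.18 ± 0.15. The summed intensity of the 11 trophoblast markers was 1220 to 2529 units in Srf-null, 11288 to 18562 in rescue and 5681 to 7385 in wild-type cells, and 2043, 2197 and 2267 at 0 min. Krt8, Krt18 and Tfap2c alone reached 6340, 7036 and 4457 units in rescue cells, so the sum largely restates the called markers. Hand1 and Tpbpa, which mark trophoblast more closely than keratins do, were above the floor on 0 arrays. The sums of 20 primitive and visceral endoderm markers were 21154 to 24210, 25103 to 27766 and 20092 to 24431 units in the same order of lines, with 0 called and Apoa1, Rbp4, Foxa2 and Hnf4a above the floor on 0 arrays. Those of 19 fibroblast markers were 4842 to 5671, 4447 to 5124 and 5093 to 6084, with 0 called and Col1a2, Pdgfra and Fap above the floor on 0 arrays. Their part in the Igf2 values was not tested. In RNA of whole cultures, fewer cells that express a gene and less RNA per cell cannot be told apart.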

How the data were processed

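Linear intensity values per probe set, as deposited by the authors, cover 12654 probe sets on 15 arrays, 66 of which are array controls. How they were summarised, background-corrected and scaled is not given in the sources. Sample groups came from the titles, and 0 columns were left without a sample.

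Arrays were put on a common scale by quantile normalization, any value below the 40th percentile was raised to it, and log2 was taken. Probe sets above that floor on at least 2 arrays were tested. Symbols came from the platform annotation, updated through gene identifiers: 10298 probe sets had 1 symbol, 363 several and 1993 none listed. All probe sets of the 7 genes were kept, the H19 one with 2 symbols included.

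The models were fitted in limma 3.58.1 (R 4.3.3; lmFit, then eBayes with trend), with p-values adjusted by Benjamini-Hochberg over all 9558 probe sets and checked on simulated data. Lines were compared with time as a factor (8 residual degrees of freedom for 15 arrays, 6 for 12). Serum change was a slope on log2 minutes within each line (6). Precision is limited by the number of arrays.

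The 7 genes, the lists, the markers and the tests were chosen with earlier results of these data known. Beyond the 7 genes, the text names called genes of the pooled imprinted lists and of the IGF list, in each up to 4 more with the largest difference in each direction, and the 8 and 5 nearest to Igf2 and Mest by Pearson correlation. Osbpl5, Dlk1, Igfbp2, Ctcf, Zfp57, Trim28, Igf1r and Insr are named besides. Alternatives changed scaling, floor, filter, trend, terms, and arrays left out.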

Additional observations from a re-analysis of the deposited data

Results flagged for a closer look

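Within each line, the gap of the lowest or highest array to its nearest neighbour was divided by the range of the 5 arrays, on floored log2 values, and 14 of 27 gaps among the 9 tested probe sets exceeded Dixon's 95% critical value for 5 arrays. Chance alone passes that value in about 1 in 20 groups under normal spread, and over all tested probe sets 20% of Srf-null, 17% of rescue and 19.1% of wild-type groups passed it. The array at 0 min was the low one in 9 cases. Among them were Igf2 in rescue (0.886) and wild-type cells (0.834), H19 in rescue cells (0.752), Mest in Srf-null (0.733) and rescue cells (0.801), Ndn (101059_at) in rescue (0.765) and wild-type cells (0.778), and Peg3 (96765_at) in rescue cells (0.799). The last was Peg3 (101451_at) in wild-type cells (0.856). Over all probe sets a low array at 0 min passed it in 4.68% of Srf-null, 2.28% of rescue and 4.45% of wild-type groups.

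The other cases were high arrays of dim probe sets. Ndn (94811_s_at) was high at 0 min in Srf-null cells (1), at 10 min in rescue cells (0.817) and at 10 min in wild-type cells (1). Igf2r was high at 60 min in Srf-null cells (1) and at 10 min in wild-type cells (1). A value of 1 means that the other 4 arrays were all at the floor.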

How the results depend on the processing

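Counts below are of the 9 tested probe sets of the 7 genes that were called. Over 15 arrays the Srf-null count, 1 as reported, was 0 without the filter, without the trend, with each array's non-positive share as a term and with no replicate block (time not used as the pairing factor), and 4 without the 0 min arrays of rescue and wild-type cells. Over 12 arrays it was 4 as reported, 1 with that share as a term (Igf2), and 5 without the filter, without the trend, with a common 2% trimmed mean and with no replicate block (Ndn 101059_at added in each) and with the 18S split (Peg3 96765_at added). Leaving out 1 array gave 0 to 3 over 15 arrays and 2 to 3 over 12. In the 12-array fits Igf2 and H19 were called in all 12, Peg3 (101451_at) in 2 and Mest in 1. In the 15-array fits Igf2 was called only where the array left out was one at 0 min. Rescue minus wild-type over 12 arrays, 1 as reported, was 2 at the 60th percentile floor and with at least 5 arrays above the floor (Igf2 and Peg3 101451_at). It was 0 with scaling to a common median, without the filter, without the trend, with that share or the 18S split as a term, 1 with no replicate block, and 0 to 1 when 1 array was left out. Over 15 arrays it was 0 as reported, 1 without the 2 doubted 0 min arrays and 0 when any 1 array was left out. Without these 2 arrays the differences between lines are those of the 12-array fits by construction, so that setting is not a separate check. The serum change was 0 as reported, 1 (Igf2) for 180 min against the earlier times and 0 when any 1 array was left out. The difference of serum change was 0 throughout. Signs turned, for values never called, in these cases. With a common median the difference of serum change was -0.25 for Peg3 (101451_at) and -0.58 for Cdkn1c. With the non-positive share it was -0.90 for Cdkn1c, and rescue minus wild-type over 15 arrays was 0.044 for Mest. With 180 min against the earlier times it was -0.39 for Cdkn1c and 0.033 for H19, and at the 60th percentile floor 0.10 for Ndn (101059_at). With the 18S split the serum change was -0.21 for Peg3 (96765_at) and 0.10 for Peg3 (101451_at), and its difference 1.46 and -0.18. Leaving out 1 array also turned signs of uncalled values. Rescue minus wild-type over 15 arrays ranged from -0.050 to 0.84 for H19, -0.18 to 0.082 for Mest and -0.066 to 0.34 for Ndn (94811_s_at), and over 12 arrays from -0.20 to 0.12 for Mest and -0.044 to 0.33 for Ndn (94811_s_at). The serum change ranged from -0.38 to 0.55 for Peg3 (101451_at), -1.02 to 0.14 for Cdkn1c and -1.32 to 0.38 for Igf2r, and its difference from -0.62 to 1.31 for Peg3 (101451_at) and -1.16 to 2.32 for Cdkn1c. The cause was not tested. A floor at the 25th percentile could not be given, since that percentile is -54.1 and has no log, so the 35th was added after the data were seen. Over all probe sets, the 111 calls over 12 arrays became 4 with the non-positive share, 59 with a common median, 168 at the 60th percentile floor, 185 with the 18S split and 177 with no replicate block. The 13 over 15 arrays became 7 without the filter, 0 with the non-positive share, 1 with no replicate block and 119 without the doubted arrays. The 38 of rescue minus wild-type became 4 with a common median, 13 with the non-positive share and 60 with no replicate block, and the 0 over 15 arrays became 2 to 5 under 5 settings of floor, filter, trend and block and 38 without the doubted arrays. Serum change went to 1, 10 and 2 calls without the filter, with at least 5 arrays above the floor and without the trend, and to 241 calls with 180 min against earlier times, where its difference had 30.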
